A study of Mus musculus with 24 samples.

Results

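Messenger RNA was counted per gene in mouse oocytes after polystyrene microplastics (PSMPs), small plastic particles, had been given to the animal, and in control oocytes (con). The comparison uses 4 of the 12 RNA sequencing columns of a series of 24 samples, namely the 2 labelled in vivo PSMPs and the 2 labelled con. They were chosen by these labels and not by a measured value, though earlier results of these data were known. Each reaction held 5 pooled cells, so a library averages over oocytes, and a change in the RNA of each cell cannot be told apart from a change in the cells that were pooled. The labels give no strain, age, dose, route, length of exposure, particle size or meiotic stage for either group, and no genetic alteration. The series title speaks of a low dose and of meiotic maturation held back through histone deacetylases (HDACs), enzymes that remove acetyl groups from histones. Whether replicates stem from separate animals is not stated, so p-values measure only the spread between libraries, which may be technical.

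A full-grown oocyte makes little new RNA. It lives on transcripts stored during growth, and meiosis resumes when cyclic AMP and protein kinase A signalling falls and Cdk1 with cyclin B becomes active. Stored transcripts are then translated, kept in reserve or degraded in an ordered way, while the anaphase-promoting complex and its inhibitors time the divisions. Mitochondria supply most of the energy, fed in part by surrounding cumulus cells, the granulosa cells that stay attached to the oocyte. Acetylation of histone H4 at lysine 16 (H4K16ac), set mainly by the acetyltransferase Kat8 and removed by several deacetylases, declines as chromosomes condense.

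The exposed columns were near copies, closer to each other than counting noise allows (chi-square per degree of freedom 0.444, where replicates elsewhere had 16.5 or more), so their mean was used as 1 library and exposure has no replicate. Depth was 30.7 M and 35.6 M counts in con and 30.5 M in each in vivo PSMPs column. At least 1 count was found for 12316 and 12843 genes in con and for 17722 and 17730 in the exposed columns. The con libraries also differed from each other. Over 8506 genes with at least 10 counts in all 4 columns, called well measured here, they had a median absolute difference of 0.816 on the log2 scale, and con replicate 2 differed from in vivo PSMPs by 0.828. Con replicate 1 differed from in vivo PSMPs by 1.09. The exposed library was therefore about as near to con replicate 2 as con replicate 1 was. Levels are given as CPM, the count of a gene relative to the library total, with totals scaled by TMM factors, in the order con replicate 1, con replicate 2, in vivo PSMPs. Fold changes are log2 values of in vivo PSMPs over con ± standard error. The test is edgeR's quasi-likelihood F test on all RNA libraries with Benjamini-Hochberg adjustment over 16736 genes and a threshold of 0.05, and with n = 1 the exposed group was assumed to vary like the others. An exact permutation test of 1 library against 2 cannot give a two-sided p below 0.667.

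Of the 8506 well measured genes, 43 rose (0.506%) and 42 fell (0.494%), together 0.999%. The split between rises and falls rested on the setting, with 114 and 36 when scaled by library totals, 265 and 638 with DESeq2's Wald test, 273 and 171 without con replicate 1 and 817 and 460 without con replicate 2. Over all 16736 genes tested, 769 were called higher (4.59%) and 48 lower (0.287%), 4.88% in all, and 609 of the higher ones had no count in either con library. The 43 genes that rose had a median level of 3.40 and 4.74 CPM in con and 50.2 CPM in in vivo PSMPs, with log2 fold changes from 1.70 to 6.46. The 42 that fell had medians of 123 and 103 CPM in con and 18.9 CPM in in vivo PSMPs, with log2 from -1.65 to -5.82. Genes that rose were thus scarce in con, and genes that fell were abundant there. Adjusted p lay between 0.023 and 0.050 for all 85, close to the threshold. All 85 kept their direction in each of the 16 alternative analyses. These reuse the same counts for genes chosen by their large changes, so the kept direction is no separate support. The number called did not hold. It was 444 without con replicate 1 and 1277 without con replicate 2, 2 when only well measured genes were fitted and 0 when only these groups were fitted.

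**Figure D1:**
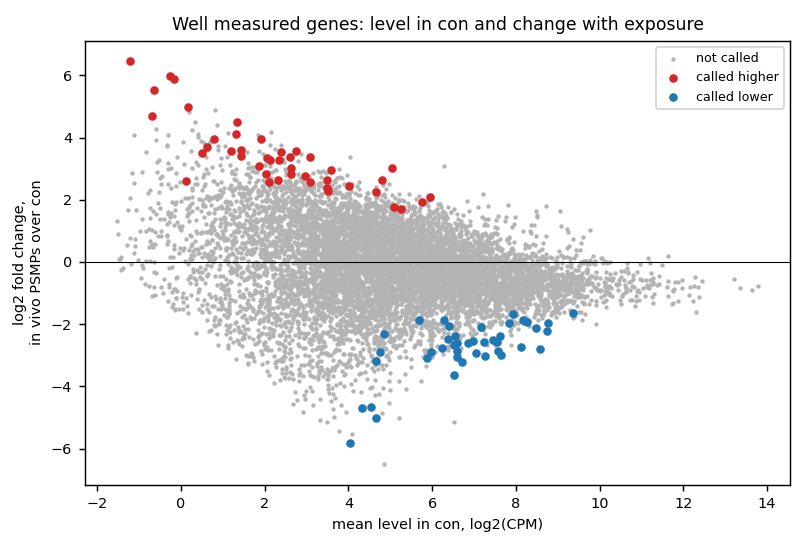
Each point is 1 of the 8506 well measured genes, with its mean level in con (log2 CPM, horizontal axis) and its log2 fold change of in vivo PSMPs over con (vertical axis). The 43 genes called higher (red) sit mostly at low con levels and the 42 called lower (blue) at higher con levels, which the choice of the genes in part fixes.

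The largest rise of a named gene was that of Cage1, a gene known for its expression in testis and tumours (ENSMUSG00000044566.15, mm10 chromosome 13, 38006052 to 38037069). It stood at 1.11 and 0.541 CPM in con and at 52.6 CPM in in vivo PSMPs (log2 5.99 ± 0.73, adjusted p = 0.023). Both con libraries were low and did not overlap the exposed one. Named rises and falls were taken only where the exposed value lay outside the con range, so this separation is no support. Over all well measured genes the exposed library lay above both con libraries for 32.7% and below both for 40.1%. Lrpprc encodes a protein that stabilises mitochondrial messenger RNA (ENSMUSG00000024120.12, chromosome 17, 84705247 to 84790789). Its levels were 1.15, 1.08 and 35.4 CPM (log2 4.98 ± 0.77, adjusted p = 0.045). The con libraries agreed closely for it, with an SD of 0.0455 CPM around a mean of 1.11 (n = 2). Park7 encodes DJ-1, a redox-sensitive protein that protects mitochondria, and stood at 0.486, 0.747 and 16.3 CPM (log2 4.71 ± 0.96, adjusted p = 0.046). Pacsin1, an adaptor of endocytosis that bends membranes (ENSMUSG00000040276.15, chromosome 17, 27655509 to 27711482), stood at 8.69, 8.30 and 88.1 CPM (log2 3.37 ± 0.42, adjusted p = 0.023). Cage1 and Pacsin1 were the 2 genes that still passed when only well measured genes were fitted.

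Erlin2, an endoplasmic reticulum protein that directs receptor degradation, stood at 0.591, 1.19 and 52.5 CPM (log2 5.87 ± 1.05). Golt1b, of vesicle transport to the Golgi, stood at 2.47, 2.58 and 57.3 CPM (log2 4.50 ± 0.65). Capzb, which caps actin filaments, stood at 3.40, 4.17 and 59.0 CPM (log2 3.96 ± 0.55). For each of these the exposed library lay far above both con libraries. Macf1, which links microtubules to actin, rose from 1.91 and 1.16 to 19.7 CPM (log2 3.68 ± 0.72). Calr4, of the calreticulin family of calcium-binding chaperones, rose from 3.37 and 10.2 to 79.9 CPM (log2 3.56 ± 0.61). Others among the largest rises were the phosphatase gene Lhpp (log2 3.95 ± 0.69), Zfp839 (log2 3.59 ± 0.80), the snoRNA host Snhg10 (log2 3.56 ± 0.78), the tRNA-modifying Elongator subunit Elp3 (log2 3.54 ± 0.74) and Men1 (log2 3.38 ± 0.72). Men1 encodes menin, a partner of the KMT2 histone methyltransferases, and stood at 3.30, 8.84 and 63.4 CPM. Adjusted p of these lay between 0.037 and 0.046. Leaving out con replicate 1 or 2 moved the values of Calr4, Snhg10, Elp3 and Men1 most, from 2.84 to 4.24 for Men1 and from 2.86 to 4.99 for Snhg10, without changing their direction.

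Among smaller rises, picked after their values were seen, were 2 genes of high level. Nsf, the ATPase that recycles the proteins of membrane fusion, stood at 23.0, 43.1 and 269.7 CPM (log2 3.03 ± 0.62, adjusted p = 0.046). Fzd3, a Wnt receptor, stood at 27.7, 27.8 and 173 CPM (log2 2.64 ± 0.50, adjusted p = 0.046). The con libraries were nearly equal for Fzd3, and both lay well below the exposed one. Polr2b, a core subunit of RNA polymerase II, stood at 9.14, 7.68 and 50.1 CPM, and Tcp1, a subunit of the chaperonin that folds actin and tubulin, at 8.13, 14.5 and 58.6 CPM (log2 2.57 ± 0.47 and 2.38 ± 0.54).

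The falls included genes with close agreement between the con libraries. Such agreement helps a gene to pass the test, for rises too, so it is no separate support. The higher con level over the lower had a median of 1.23 for the 42 falls and 1.57 for the 43 rises. It was 1.76 over all well measured genes. Trp53, the tumour suppressor p53 (ENSMUSG00000059552.13, chromosome 11, 69580359 to 69591873), stood at 78.4 and 73.4 CPM in con and at 11.03 CPM in in vivo PSMPs (log2 -2.78 ± 0.61, adjusted p = 0.046). Ccng2, cyclin G2, which restrains the cell cycle (ENSMUSG00000029385.14, chromosome 5, 93267257 to 93276231), stood at 193, 191 and 26.1 CPM (log2 -2.87 ± 0.51, adjusted p = 0.045). Emsy, a BRCA2-binding chromatin protein, stood at 26.2, 27.4 and 3.61 CPM (log2 -2.89 ± 0.67, adjusted p = 0.047). For all of these the exposed library lay several times below both con libraries, which were near each other. Erg28, whose yeast counterpart tethers sterol synthesis enzymes, stood at 359, 406 and 54.9 CPM (log2 -2.80 ± 0.54). Wdr11 stood at 99.95, 94.6 and 11.8 CPM (log2 -3.04 ± 0.70) and Sh3bgrl2 at 195, 208 and 25.2 CPM (log2 -3.00 ± 0.64).

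The largest falls by fold were of genes at lower level. Gatb, a subunit of the mitochondrial enzyme that completes glutaminyl-tRNA (ENSMUSG00000028085.12, chromosome 3, 85574119 to 85655622), stood at 17.6, 15.1 and 0.284 CPM (log2 -5.82 ± 1.36, adjusted p = 0.047). Tceanc, of the family of transcription elongation factor TFIIS, stood at 34.8, 15.4 and 0.773 CPM (log2 -5.01 ± 0.80, adjusted p = 0.045). Pole2, a subunit of DNA polymerase epsilon, stood at 28.6, 17.8 and 0.902 CPM (log2 -4.67 ± 0.96, adjusted p = 0.046). The exposed library held under 1 CPM of each, below both con libraries. Ank, which exports pyrophosphate, Prkar2a, of protein kinase A, and the RNA-binding protein gene Rbm47 fell as well, with log2 -3.63 ± 0.83, -3.23 ± 0.64 and -3.18 ± 0.51. The others of the 15 were Krcc1 (log2 -3.08 ± 0.61), the membrane protease gene Tmprss11a (log2 -3.02 ± 0.56) and Msantd4 (log2 -2.85 ± 0.68). Adjusted p of these 6 lay between 0.045 and 0.049. Without con replicate 1 the change of Tceanc was -4.30 and without con replicate 2 it was -5.50, the widest span among the 15.

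**Figure D2:**
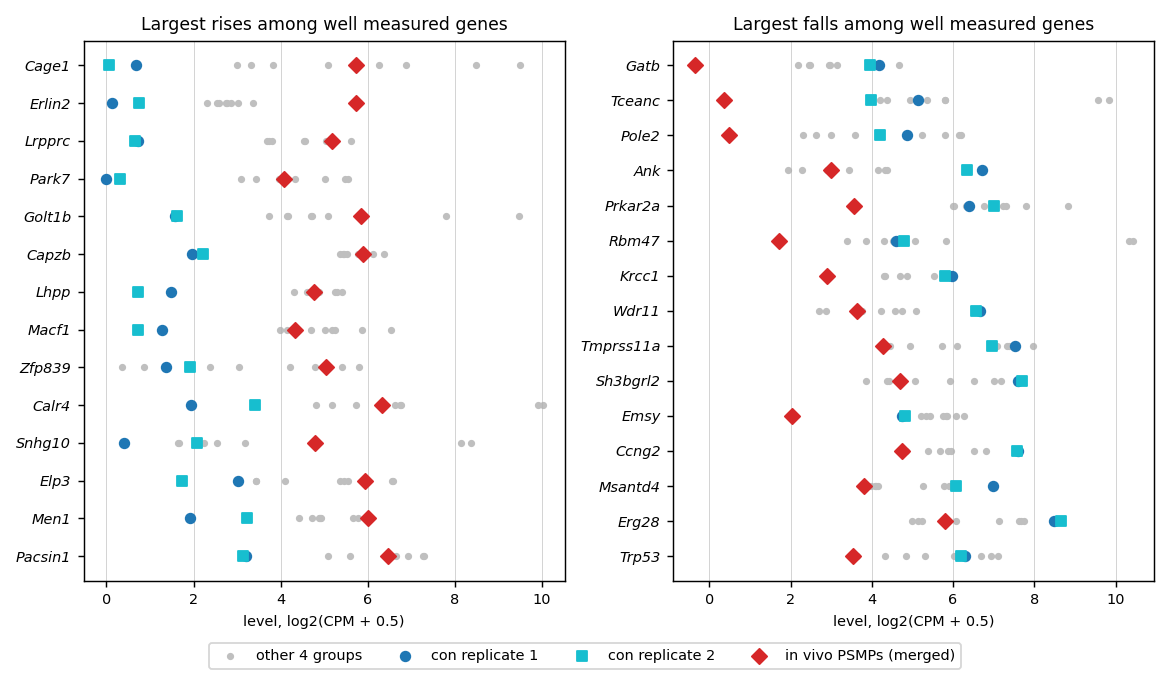
Levels of 14 of the largest rises (left) and 15 largest falls (right) as log2(CPM + 0.5), with 1 row per gene. Blue circles and cyan squares are con replicates 1 and 2, red diamonds the merged in vivo PSMPs library, and grey points the 8 libraries of the other 4 groups. For rises such as Capzb and Park7 the grey points lie with the exposed library, and for falls such as Emsy and Prkar2a they all lie above the exposed library.

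Further falls were picked after their values were seen. Stard7, which carries phosphatidylcholine to mitochondria, stood at 678, 637 and 210.3 CPM (log2 -1.65 ± 0.39, adjusted p = 0.049). Sptlc1, a subunit of the enzyme that starts sphingolipid synthesis, stood at 416, 450.2 and 112 CPM (log2 -1.95 ± 0.40, adjusted p = 0.046). The con libraries agreed within a modest margin for each, and the exposed library lay lowest. The splicing genes Srsf10 (log2 -2.38 ± 0.42) and Srrm1 (log2 -1.96 ± 0.47), the H2A.Z chaperone gene Vps72 (log2 -2.50 ± 0.49) and the apoptosis inhibitor gene Api5 (log2 -2.59 ± 0.46) also fell.

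The 8 libraries of the other groups, which did not enter the choice of these genes except through the filter and the shared estimate of spread, were set beside the called genes. These libraries were con-in vitro (culture controls), in vitro PSMPs (exposed in culture), SAHA (treated with an inhibitor of histone deacetylases) and PSMPs & OE-Hdac3 (exposed, with Hdac3 overexpressed), 2 each. For 34 of the 43 genes that rose (79.1%), both con libraries lay below all 8 others, a position that 6.7% of all well measured genes had. The exposed library lay above all 8 for 9 of the 43 (20.9%, against 17.4% of well measured genes). Among the falls the position was different. The exposed library lay below all 8 others for 26 of 42 (61.9%, against 10.3%), and both con libraries lay above all 8 for 14 (33.3%, against 15.8%). The low con values helped to choose the rises, and the low exposed value the falls, so these shares describe the chosen genes and carry no test. Capzb shows the pattern of the rises, with 40.5 to 82.5 CPM in the other libraries against 3.40 and 4.17 CPM in con and 59.0 CPM in in vivo PSMPs. Emsy shows that of the falls, with 36.2 to 77.1 CPM in the others against 3.61 CPM in in vivo PSMPs. Erlin2 was higher in in vivo PSMPs (52.5 CPM) than in any other library (at most 9.79 CPM). Trp53 stood at 11.9 and 19.4 CPM in con-in vitro, near the exposed value, and at 27.9 to 137 CPM in the other 6 libraries.

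Gene groups were read from 35 lists by the position of the exposed library among well measured members. Over all 8506 well measured genes it lay above both con libraries for 32.7% and below both for 40.1%, and the median log2 change was -0.215 (0.254 over all genes tested). Shares of a list are to be set against these. With 0.999% of well measured genes called, a list with no call among its well measured members says little. Scaled by library totals instead, the median of all genes tested was 0.576 and that of well measured genes 0.114, and list medians over all tested members near 0 changed sign: endoplasmic reticulum stress, apoptosis, mTOR, cyclic AMP, cyclin B, Aurora kinase and spindle lists were below 0 with TMM factors and above 0 with library totals. The anaphase-promoting complex list, at 0.027 with TMM factors, was at -0.033 with DESeq2's size factors. The other lists kept their sign with both.

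Genes of cytosolic ribosomal proteins lay mostly above both con libraries in the exposed library, but few passed. Of 73 well measured genes of cytosolic ribosomal proteins, the exposed library lay above both con libraries for 63 and below both for 2. Their median levels, as log2(CPM + 1), were 3.72 and 5.55 in con and 6.45 in the exposed library. The con libraries thus differed from each other by more than con replicate 2 differed from in vivo PSMPs, and con replicate 2 was the higher of the con libraries for 63 of the 73. The same median was 4.76 and 4.23 in con-in vitro, 4.22 and 3.63 in in vitro PSMPs, 3.64 and 3.34 in SAHA, and 6.99 and 7.09 in PSMPs & OE-Hdac3. Of 85 tested members 2 passed the test (2.35%, against 4.59% called higher over all genes), Rpl10l from 0 counts in con to 5.47 CPM and Rps26, the well measured one, at 2.12, 6.6 and 42.4 CPM (log2 3.28 ± 0.72, adjusted p = 0.046). Rps16, at 65.0, 58.9 and 188 CPM, did not pass (adjusted p = 0.093), nor did Rps25, at 4.79, 24.9 and 84.1 CPM (adjusted p = 0.085). Of 35 well measured genes of translation initiation, 22 lay above both con libraries and 8 below both. Eif1ax stood at 11.05, 51.6 and 179.7 CPM (adjusted p = 0.086) and Eif1, which guards the choice of start codon, at 715, 687 and 264 CPM (adjusted p = 0.072). No well measured member of that list passed the test, and its members went both ways.

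The lists of respiratory complex, mitochondrial ribosomal and mitochondrial DNA genes gave no call among well measured members. At 0.999% called over all well measured genes, this says little of lists of that size. Of 66 well measured nuclear genes of the respiratory complexes, 46 lay above both con libraries and 8 below both, with a median log2 of 0.79. Median levels were 3.87, 5.38 and 5.80 as log2(CPM + 1), so con replicate 2 again lay nearer to the exposed library than to con replicate 1. Atp5j, a subunit of ATP synthase, stood at 5.49, 3.99 and 36.9 CPM (log2 2.96, adjusted p = 0.052), just outside the threshold, and Sdhd of complex II at 1.32, 9.17 and 71.0 CPM (adjusted p = 0.0795). Of 58 well measured genes of mitochondrial ribosomal proteins, 34 lay above both con libraries and 10 below both, with Mrpl4 at 11.1, 15.2 and 85.6 CPM (adjusted p = 0.052). Of 10 well measured genes of mitochondrial DNA, none lay above both and 6 lay below both, with a median log2 of -1.18. All genes of mitochondrial DNA in the file, a larger set, together held 2.38% and 1.1% of counts in con and 0.876% in in vivo PSMPs. The cytochrome oxidase subunit gene mt-Co1 stood at 5868, 4270 and 1644 CPM (adjusted p = 0.24), and mt-Cytb at 5344, 1448 and 1327 CPM (adjusted p = 0.40). Con replicate 1 was the highest of the 3 libraries for all 10. Median levels of the 10, as log2(CPM + 1), were 10.6 and 8.9 in con and 8.84 in the exposed library, which lay above con replicate 2 for 4 of them.

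Proteasome and glycolysis genes were called at shares near that of all genes (4.59% higher). Of 45 tested proteasome genes 2 passed (4.44%), Psmb10 at 3.82 CPM and Psmb11 at 4.98 CPM, both at 0 in con. Of 35 well measured proteasome genes 22 lay above both con libraries and 8 below both, and the activator subunit gene Psme3 stood at 369, 437 and 151 CPM (adjusted p = 0.088). Of 18 tested glycolysis genes 1 passed (5.56%), and of 13 well measured ones 5 lay above both and 4 below both. Gpi1, the glucose-6-phosphate isomerase, stood at 3.34, 3.14 and 24.4 CPM (adjusted p = 0.059), Pkm, pyruvate kinase, at 24.6, 49.3 and 147 CPM (adjusted p = 0.071), and the glucose transporter gene Slc2a1 at 82.2, 105 and 18.9 CPM (adjusted p = 0.081). None of the well measured members passed, and the members of smallest p pointed in opposite directions. The gene of the phosphofructokinase Pfkp, with 2 counts in con, passed at 13.3 CPM in in vivo PSMPs, 450 times the con level (95% counting interval 124 to 3730). Mfn2, which fuses mitochondria and also held 2 counts in con, passed with a ratio of 483 (133 to 4000). In lipid synthesis, Acly, which makes cytosolic acetyl-CoA, stood at 105, 123 and 30.4 CPM (adjusted p = 0.072) and the sterol desaturase gene Sc5d at 167, 86.4 and 27.6 CPM (adjusted p = 0.073).

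**Figure D3:**
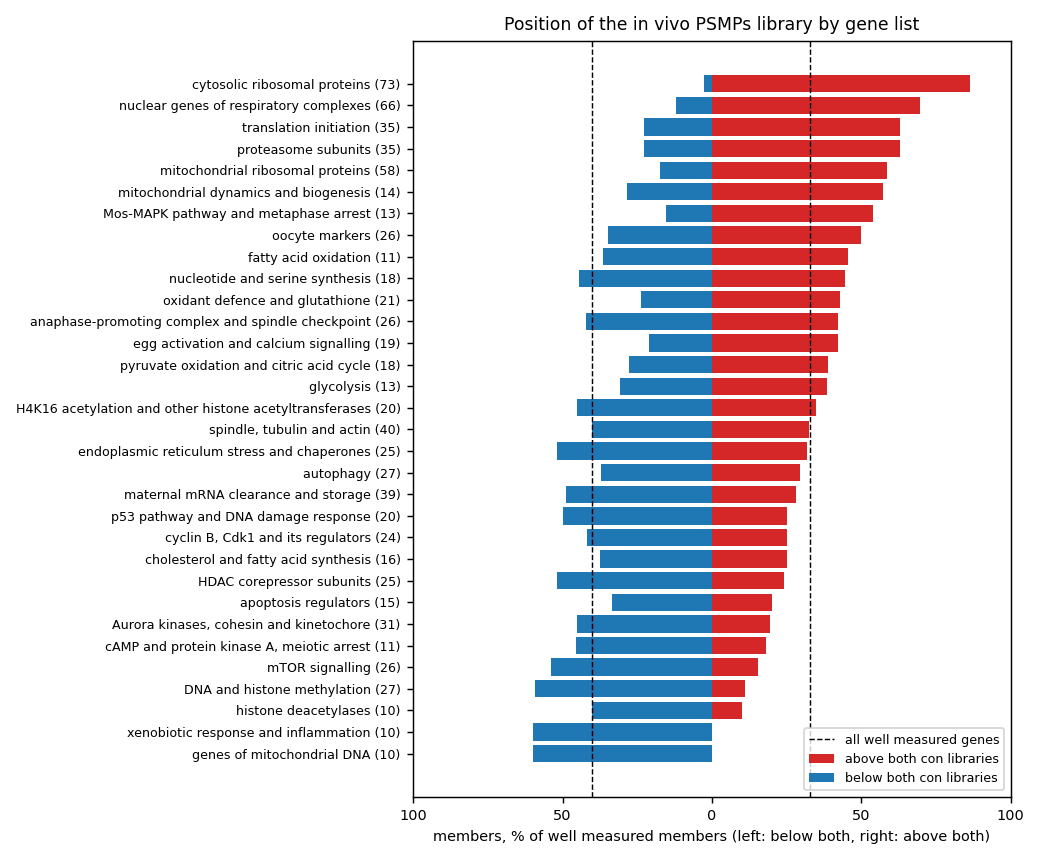
Share of the well measured members of each list (number in brackets) for which the in vivo PSMPs library lay above both con libraries (red, to the right) or below both (blue, to the left), in percent, for lists with at least 10 such members. Dashed lines give the shares over all well measured genes, 32.7% and 40.1%, and cytosolic ribosomal proteins stand farthest to the right.

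Few genes of meiotic arrest and the meiotic divisions passed. In the cyclic AMP list 1 of 17 tested genes was called lower (5.88%), and in the Mos-MAPK list 1 of 16 was called higher (6.25%). In the list of Aurora kinases, cohesin and kinetochore 2 of 38 were called higher (5.26%). Over all genes 4.59% were called higher and 0.287% lower. Prkar2a, which holds the catalytic subunit of protein kinase A inactive until cyclic AMP binds, stood at 83.8, 127 and 11.2 CPM and fell (adjusted p = 0.046). Fbxo5 encodes Emi1, an inhibitor of the anaphase-promoting complex, and rose from 11.3 and 21.1 to 88.2 CPM (log2 2.44 ± 0.47, adjusted p = 0.046). The exposed library was thus the lowest for Prkar2a and the highest for Fbxo5. Of 24 well measured genes of cyclin B, Cdk1 and their regulators 6 lay above both con libraries and 10 below both, and none passed. Cdc25a had the smallest p of these, at 8.16, 2.71 and 28.1 CPM (adjusted p = 0.060), above con. Ccnh came next, also above con, at 6.84, 1.19 and 34.8 CPM (adjusted p = 0.060). Ccna2, at 681, 421 and 213 CPM (adjusted p = 0.086), lay below con. From other lists, Cdc20, an activator of the anaphase-promoting complex, stood at 467, 417 and 117 CPM (log2 -1.92, adjusted p = 0.052). The kinase gene Mos, which keeps the egg arrested, stood at 3533, 3383 and 1397 CPM (adjusted p = 0.085). The germ cell kinase gene Aurkc stood at 453, 557 and 189 CPM (adjusted p = 0.067). Trip13, of the anaphase-promoting complex and spindle checkpoint list, lay above con, at 0.382, 1.21 and 10.75 CPM (adjusted p = 0.099). Of 26 well measured genes of that list 11 lay above both con libraries and 11 below both. The cohesin genes Smc1b and Stag3 passed from low con values, Smc1b with 2 counts in con (ratio 627, 95% counting interval 173 to 5190) and Stag3 from 0 counts to 1.65 CPM.

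In the spindle and actin list, 13 of 40 well measured members lay above both con libraries and 16 below both. Of 43 tested members 1 was called lower (2.33%, against 0.287% over all genes). Rhoa, the GTPase that drives actomyosin contraction, stood at 62.0, 41.1 and 14.2 CPM and fell (log2 -1.86 ± 0.45, adjusted p = 0.050). The spindle pole gene Numa1 at 221, 215 and 63.4 CPM (adjusted p = 0.066) and the GTPase gene Cdc42 at 402, 389 and 165 CPM (adjusted p = 0.069) did not pass. For these 3 genes the con libraries lay near each other and above the exposed one. Of 39 well measured genes of maternal mRNA clearance and storage 11 lay above both and 19 below both, and none passed. Cnot4 (40.8, 20.9 and 108 CPM, adjusted p = 0.073) and the deadenylase subunit gene Pan2 (298, 315 and 109.8 CPM, adjusted p = 0.092) stood on opposite sides of con.

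Of 18 listed deacetylase genes (Hdac1 to Hdac11 and the sirtuins), the enzymes named in the series title, 17 were tested and 10 were well measured. None passed, which at 4.88% called over all genes says little of so short a list. Of the well measured ones 1 lay above both con libraries and 4 below both. Hdac3, the catalytic subunit of the NCoR and SMRT complexes, stood at 23.4, 37.4 and 12.7 CPM (log2 -1.26, adjusted p = 0.19). Hdac2 stood at 152.5, 37.9 and 98.9 CPM (log2 0.05), with the exposed library between the con libraries. Hdac1 stood at 0.0695, 3.61 and 2.37 CPM and Hdac8 at 1.29, 16.8 and 7.58 CPM, again between them. Without con replicate 2 the log2 change of Hdac8 was 2.53 (adjusted p = 0.045) in place of -0.26. Hdac9 was at 12.2, 8.19 and 2.91 CPM and Hdac6 at 3.89, 0.103 and 15.1 CPM, outside the con range on opposite sides. The con libraries differed from each other several fold for Hdac1, Hdac2, Hdac6 and Hdac8, so a change of that size could not be detected for them. Hdac7 and Hdac10 were at 0 in con and at 0.387 CPM in in vivo PSMPs, and Hdac11 stood at 0, 0.361 and 0.877 CPM. The sirtuin genes Sirt6 (4.97, 7.68 and 19.6 CPM, adjusted p = 0.077) and Sirt4 (41.2, 51.9 and 11.1 CPM, adjusted p = 0.11), the latter of mitochondria, did not pass.

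Kat8, the acetyltransferase of H4K16, stood at 12.4, 80.9 and 116 CPM (log2 1.32, adjusted p = 0.51), with the exposed library above both and con replicate 1 far below con replicate 2. Among 20 well measured genes of H4K16 and other histone acetylation 7 lay above both con libraries and 9 below both. The members of smallest p lay below con, Naa40 at 482, 500 and 181 CPM (adjusted p = 0.11) and Mcrs1 at 145, 133 and 56.4 CPM (adjusted p = 0.12). The histone acetyltransferase gene Kat2a lay above con, at 8.34, 10.05 and 36.7 CPM (adjusted p = 0.14). Of 25 well measured HDAC corepressor genes 6 lay above both and 13 below both. Ing1 stood at 325, 418 and 119 CPM (log2 -1.64, adjusted p = 0.059) and Sin3a at 568, 423 and 198 CPM (adjusted p = 0.14). Arid4a went the other way, at 7.16, 4.07 and 20.7 CPM (log2 1.88, adjusted p = 0.12). Of 27 well measured genes of DNA and histone methylation 3 lay above both and 16 below both, with a median log2 of -0.473. Of 32 tested members 1 was called lower (3.12%, against 0.287% over all genes). Kmt2b, the H3K4 methyltransferase needed in growing oocytes, passed and fell, at 279, 293 and 79.2 CPM (log2 -1.85 ± 0.45, adjusted p = 0.050). Its binding partner menin (Men1) was among the rises. Setd1b stood at 1.25, 0.361 and 7.37 CPM (adjusted p = 0.095).

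Stress and growth lists each held a single well measured call or none. Among tested members, 3.45% of the endoplasmic reticulum list, 3.12% of the p53 list and 3.23% of the mTOR list were called higher. The p53 and mTOR lists had 1 gene each called lower (3.12% and 3.23%). Over all genes 4.59% were called higher and 0.287% lower. Hspa5 encodes BiP, the main chaperone of the endoplasmic reticulum, and rose from 35.2 and 32.8 to 116 CPM (log2 1.78 ± 0.40, adjusted p = 0.046). Hsp90b1, its neighbour in that compartment, stood at 55.4, 28.2 and 131 CPM (adjusted p = 0.068), while 8 of the 25 well measured members lay above both con libraries and 13 below both. In the p53 and DNA damage list 5 of 20 lay above both and 10 below both, and besides Trp53 the recombination gene Palb2 (99.7, 92.7 and 21.6 CPM, adjusted p = 0.054) and the ligase gene Lig4 (90.7, 35.8 and 8.71 CPM, adjusted p = 0.057) lay just outside the threshold. In the mTOR list 4 of 26 lay above both and 14 below both. Rheb, the GTPase that activates mTORC1, fell from 562 and 293 to 91.5 CPM (log2 -2.22 ± 0.51, adjusted p = 0.047). Oxidant defence genes gave no call among 21 well measured members, 9 above both and 5 below both, with the mitochondrial peroxiredoxin gene Prdx3 at 3.23, 7.16 and 25.8 CPM (adjusted p = 0.084). Xenobiotic and inflammation genes gave none among 10, with 0 above both and 6 below both.

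The difference from con also ran with gene length, which was read from the deposited lengths. Well measured genes were split into 5 groups of nearly equal number. The median log2 of in vivo PSMPs over con was 0.0432 in the shortest group (up to 2125 bases) and -0.392 in the longest (7887 bases and over), with the groups between in order. The median log2 of con replicate 2 over con replicate 1 also fell with length, from 0.204 to -0.142. The exposed library lay above both con libraries for 40.1% of the shortest genes and 25.8% of the longest. The 43 rises had a median length of 4375 bases, the same as all well measured genes, and the 42 falls one of 4702 bases. Genes of ribosomal proteins are short. The part of length in the list results was not tested.

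**Figure D4:**
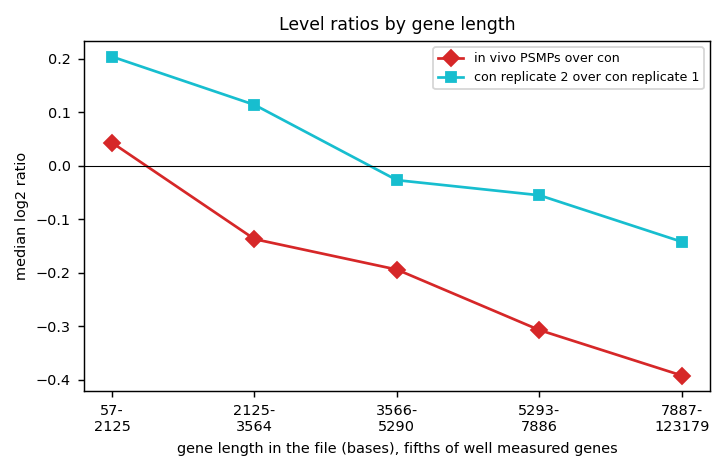
Median log2 ratio over well measured genes in 5 groups by gene length (bases). Red diamonds are in vivo PSMPs over con, from 0.0432 to -0.392, and cyan squares con replicate 2 over con replicate 1, from 0.204 to -0.142, and both go down from the shortest to the longest genes.

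Most genes called higher were at 0 in both con libraries. Of 3515 such genes tested, 609 were called (17.3%), at 0.361 to 59.4 CPM in in vivo PSMPs with a median of 2.37 CPM. The number called was 1035 without con replicate 1 and 1103 without con replicate 2. It was 0 when only these groups were fitted, and 92 when the merged exposed library stood as 1 column in the filter, a setting chosen after the data were seen. Fold changes against a group at 0 are lower bounds, set against 3 counts over the con group (0.0444 CPM), and for the 609 the bounds had a median of 53.4 and a lowest value of 8.13. Ranked by level per kilobase of gene length, the highest were Inha, the inhibin alpha subunit made by granulosa cells (40.3 CPM per kb, at least 1339-fold higher), Eif1a, a translation initiation factor gene (12.8 CPM per kb, at least 1204-fold higher), and the defensin gene Defb48 (8.81 CPM per kb, at least 88.3-fold higher). Then came the recombination gene Xrcc3 (8.70 CPM per kb), the reductase gene Akr1b8 (7.27), the GTPase gene Rhou (6.75), the NEDD8-conjugating enzyme gene Ube2f (5.90), Ccdc170 (5.89), the ribosome assembly gene Nop53 (5.67) and Fbxo17 (5.62). Adjusted p of the 10 lay between 0.027 and 0.050. Other members of the lists at 0 in con that passed were the carnitine transferase gene Cpt1a at 4.07 CPM, the complex III gene Uqcrc1 at 10.98 CPM, the kinase gene Rps6kb2 at 26.4 CPM and the apoptosis gene Bok at 5.83 CPM.

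Most of these genes had counts outside the comparison too. At least 1 count was found for 98.4% of the 609 in both SAHA libraries, 98.9% and 99.7% in in vitro PSMPs, and 99.7% and 99.8% in PSMPs & OE-Hdac3. In con-in vitro the shares were 44% and 41.7%. Over all 3515 genes at 0 in con they were 28.8% and 26.9% in con-in vitro and from 83.2% to 89.5% across SAHA, in vitro PSMPs and PSMPs & OE-Hdac3. The con libraries are without counts by the choice of the genes. The filter kept a gene at 0 in con only where enough other columns held counts of it. The near-identical exposed columns counted as 2 columns there, so a gene could be kept through the exposed library alone. High detection outside con is therefore in part fixed by the filter. A count of 0 allows up to 0.104 and 0.0773 CPM in con replicates 1 and 2, and such floors, like the counting intervals, leave out every other error.

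**Figure D5:**
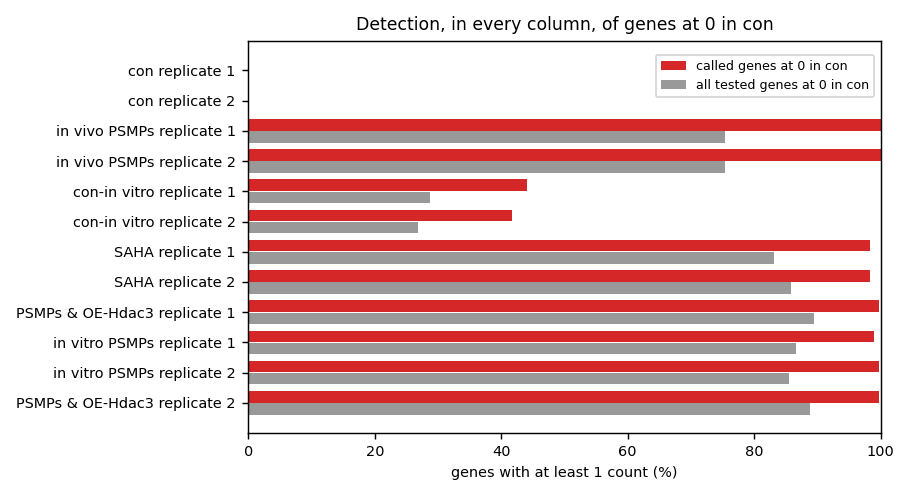
Share of genes with at least 1 count in each of the 12 columns, in percent, for the 609 genes at 0 in con that were called higher (red) and for all 3515 tested genes at 0 in con (grey). The con columns are at 0 by choice of the genes, and detection in the others is in part fixed by the filter. For the 609, con-in vitro lies at 44% and 41.7%, below the 98.4% to 99.8% of the other groups outside the comparison.

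Markers of other cell types were read beside this set. The oocyte label held, since Gdf9 stood at 15251, 13142 and 8289 CPM and Bmp15 at 1845, 2146 and 1920 CPM. Of 26 well measured oocyte markers 13 lay above both con libraries and 9 below both, and none passed. Several lay far lower in con replicate 1 than in con replicate 2, such as the zona pellucida gene Zp3 at 380, 1371 and 1790 CPM and Padi6 at 117, 963 and 1198 CPM. Of 20 cumulus and granulosa markers, 5 had a count in each con library and 16 in in vivo PSMPs, while 15 were at 0 in con. Their summed level was 838 and 591 CPM in con and 646 CPM in in vivo PSMPs, most of it Serpine2 (796, 525 and 478 CPM). Inha passed, and so did Vcan, a matrix proteoglycan gene, at 3.25 CPM. Gja1, the gap junction gene, stood at 0, 0 and 13.4 CPM and Kitl, the ligand of the oocyte receptor Kit, at 0.208, 9.12 and 0.0516 CPM. Of 23 markers of other ovarian and blood cells 16 were at 0 in con, and their summed level was 106 and 97.3 CPM in con and 77.2 CPM in in vivo PSMPs. Epcam, of epithelium, passed at 1.39 CPM from 0, and the endothelial receptor gene Kdr stood at 9.45, 28.3 and 0.0516 CPM. In all, 2 of 16 tested cumulus and granulosa markers and 1 of 10 others passed, each of them at 0 in con. Tested markers at 0 in con numbered 11 and 5, so 2 of 11 and 1 of 5 passed. Of all tested genes at 0 in con 17.3% passed. The part of other cells in the genes called higher was not tested.

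Some genes had counts in con and none in the exposed library. With at least 10 counts in both con libraries, 57 genes had no count in in vivo PSMPs, of which 46 were tested and 3 called. The zinc finger gene Zfp595 stood at 19.3 and 10.2 CPM in con and passed (at least 191-fold lower against a floor of 3 counts, 0.0773 CPM, in the exposed library, adjusted p = 0.046). Tmem52b (11.3 and 17.4 CPM), Adamtsl3 (6.95 and 19.2 CPM), the olfactory receptor gene Olfr48 (9.73 and 15.1 CPM) and the transketolase-like gene Tktl1 (1.04 and 23.7 CPM) did not pass, with adjusted p from 0.075 to 0.079. The con libraries were far apart for Tktl1.

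Exposure in culture was the nearest other comparison and shares no library with this one. Among well measured genes, in vitro PSMPs against con-in vitro called 14.1% higher and 11.5% lower (8.57% and 6.78% over all genes tested). Of the 43 rises, 3 were called higher there and 11 lower, and of the 42 falls 14 were called higher and 8 lower. The difference between the effects was tested for each gene, and 1886 of 16736 passed (11.3%), a number that was 784 and 618 without in vitro PSMPs replicates 1 and 2 and 3740 and 5028 without con replicates 1 and 2. It passed for 24 of the 29 genes named above as largest rises and falls, which the same in vivo contrast had chosen, so their number says nothing by itself. Rbm47 was lower with both exposures, from 1294 and 1368 to 10.1 and 13.97 CPM in culture, and Prkar2a as well (log2 -1.97 in culture, adjusted p = 0.021). Tceanc fell with both (log2 -5.12 in culture), and the difference of 0.11 ± 0.89 did not pass. Trp53 went the other way in culture, from 11.9 and 19.4 to 64.4 and 103 CPM (log2 2.42, adjusted p = 0.0085), as did Pole2, from 4.45 and 11.5 to 37.2 and 55.5 CPM (log2 2.54, adjusted p = 0.030). Among the rises, Hspa5 (log2 1.78 in culture, adjusted p = 0.0093) and Tcp1 (log2 2.86 in culture, adjusted p = 0.0053) were higher with both exposures. Golt1b went the other way in culture, at 222 and 710.1 CPM in con-in vitro and at 33.2 and 26.0 CPM in in vitro PSMPs. The controls for culture and for the animal thus stood on opposite sides of the exposed libraries for this gene.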

How the data were processed

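RNA sequencing columns were taken as the authors deposited them, as raw counts per gene with gene lengths. Per the labels' protocols, cDNA was amplified from lysed cells with a full-length single-cell kit and libraries were made with a transposase kit. The submitters' processing notes name build mm10 and the tools deepTools 3.5.1, Bowtie2 2.2.5, DESeq2, featureCounts, HISAT2, fastp 0.12.4, Picard and SAMtools, and which of them made the counts is not given in the sources used here. Samples for chromatin profiling were not analysed here.

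The 2 in vivo PSMPs columns were merged as their rounded mean, leaving 11 libraries of 6.22 M to 35.6 M counts. In R 4.3.3, edgeR 4.0.16 kept 16736 of 55401 genes (expression filter, minimum count 10, on the 12 columns), scaled libraries by TMM and fitted 1 coefficient per group with robust quasi-likelihood dispersion (5 residual degrees of freedom, biological coefficient of variation 71.9%). Standard errors are the log2 change over the root of F. The filter thus counted the exposed library as 2 columns. The effects in the animal and in culture were compared as a contrast in the same fit. The procedure was tested on simulated data.

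The comparison, the 35 lists (1122 genes, 1 not in the file) and the tests were chosen with earlier results of these data known. Named genes are the 15 largest rises and 15 largest falls among called, well measured, named genes with the exposed value outside the con range. To these were added the 10 called genes at 0 in con of highest level per kb. The 5 genes at 0 in in vivo PSMPs of highest con level were added as well. So were, in each list, the called and up to 3 other well measured members of smallest p, and Hdac1 to Hdac11 with Kat8. A gene the rule took is not reported here. Marker genes, list members at 0 in con and others outside this rule were picked after their values were seen. Alternatives were other scalings, filters, tests and sets of libraries.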

Additional observations from a re-analysis of the deposited data

Results flagged for a closer look

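For 24 of the 29 genes named among the largest rises and falls, and for Rheb, Rhoa and Rps26, the effect of exposure in the animal differed from that of exposure in culture in edgeR's test of the difference (adjusted p from 0.00075 to 0.038). Values below are log2 effects in the animal minus log2 effects in culture. Both con libraries and the lone in vivo PSMPs library, which chose these genes, enter each value.

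Rises that were larger in the animal than in culture had differences of 10.5 for Cage1, 10.1 for Snhg10, 8.48 for Golt1b and 7.29 for Calr4. These 4 genes, and Rps26 (5.44), were called lower in culture, Rps26 with log2 -2.16 there. Differences were 6.27 for Erlin2, 5.44 for Zfp839, 5.19 for Macf1 and 4.99 for Lrpprc. They were 4.68 for Capzb, 4.08 for Elp3, 3.99 for Men1, 3.6 for Lhpp and 2.22 for Pacsin1.

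Among the falls, Pole2 (-7.21), Trp53 (-5.2), Wdr11 (-4.83), Sh3bgrl2 (-4.69), Erg28 (-4.53) and Rheb (-4.89) were called higher in culture. Further differences below 0 were -4.42 for Msantd4, -4.32 for Tmprss11a, -4.09 for Krcc1, -3.12 for Emsy and -2.7 for Ccng2. Rbm47 and Rhoa had differences above 0, 3.61 and 3.07, and both genes fell in culture as well (log2 -6.79 and -4.93).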

How the results depend on the processing

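The 85 well measured genes called kept their direction in all 16 alternatives, which reuse the same counts and so give no separate support. The numbers called, 817 in all, 85 well measured and 609 at 0 in con, moved widely. The cause was not tested, apart from fewer genes or libraries where the setting itself brings them. DESeq2's size factors, a filter at 50 counts and leaving out mitochondrially encoded genes stayed within 1.5 times for all these counts, and library totals for the counts of all genes and of genes at 0 in con but not of well measured genes (150, of which 114 rose and 36 fell). Without a filter the counts were 1377, 130 and 1056. With only well measured genes fitted, 2 were called. DESeq2's Wald test called 2728, 903 and 1143. With only con and in vivo PSMPs fitted edgeR called 0 in each class, with 433 genes at an unadjusted p under 0.05, and without the con-in vitro group it called 2260, 354 and 1512. Leaving out 1 column of the comparison gave 807 to 4336 genes, 83 to 1277 well measured and 600 to 1103 at 0 in con, highest without con replicate 2. An alternative chosen after seeing the data, the filter with the exposed library as 1 column, gave 150, 21 and 92. That filter kept 17595 genes, more than the 16736 of the main one. Hdac8, at -0.26, ranged from -1.15 to 2.53 when a con library was left out, above 0 without con replicate 2.

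Nothing in the labels pairs the samples by replicate number, and the check of pairing is void, since the exposed columns are near copies (correlation of same-numbered deviations -0.0134 over 8506 genes). With the exposed columns as 2 libraries the counts were 4180, 1195 and 2206, and with the replicate block as well 3349, 902 and 1869. The number of genes whose effect differed between animal and culture (1886) was 4129 with the Wald test, 4013 with 2 exposed libraries and 3204 with the block, the last 2 run after the data were seen. It ranged from 618 to 5028 when 1 column was left out, and library totals gave 826 higher and 1320 lower against 1071 and 815. The precision is limited by the 1 exposed library and the gap between the con libraries.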
